A study of Rattus norvegicus with 20 samples.

Results

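Mesenteric arteries of ovariectomised rats given ethinyl estradiol (EE) or equilin (EQ) were compared with those of rats given estradiol benzoate (EB). The comparison used 9 of the 20 arrays of the series, 3 for each estrogen, and the arrays were taken by their treatment labels. The difference was the equal-weight mean of EE and EQ minus EB. All 3 estrogens were given by daily gavage at 0.15 mg/kg for 3 weeks to female Sprague Dawley rats. The rats had been ovariectomised at 4 weeks of age, before regular cycles, were left for 2 weeks to recover, and were 9 weeks old at the end, so every group, the controls included, lacked ovaries. The control group of 4 rats received the cyclodextrin vehicle alone. The remaining 7 arrays came from rats given tamoxifen or raloxifene at 3 mg/kg. Each array was hybridised with RNA of the arterial tree of 1 rat, which had been dissected free of veins and fat. The pairing of EE with EQ was chosen by measured values, since genes of fatty acid synthesis were high against the vehicle under these estrogens in earlier results of the same arrays. The values of those genes are therefore given here as a description, with no test, and where their probes fall inside a count over all probes this is said and nothing is read from it. For all other genes an adjusted p measures the difference against the spread within treatment groups, taken over all 20 arrays. It is not independent evidence for this division of the estrogens.

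Estrogens act through the nuclear receptors Esr1 and Esr2, which bind DNA as dimers, and through the membrane receptor Gper1. Smooth muscle, endothelium and fibroblasts of the arterial wall hold such receptors, and the fat around mesenteric arteries makes fatty acids from citrate that leaves the mitochondria. EE is estradiol with an added ethynyl group that slows its breakdown in the liver, EB is the benzoate ester of estradiol, and EQ is an equine estrogen with an additional double bond in its second ring.

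Of 35129 probes, 24562 were bright enough to be tested, and 13324 of these carry 1 gene symbol and stand for 10225 genes. Values are log2 intensities relative to the median of the array, so that 0 is the level of the median probe. In limma with Benjamini-Hochberg adjustment over all tested probes, 21 probes had an adjusted p under 0.05, which is 0.0855% of those tested, and 1258 (5.12%) had an unadjusted p under 0.05. EE and EQ were higher than EB at 14 of the 21 (0.057% of the probes tested) and lower at 7 (0.0285%). Of the 21, 16 carry 1 symbol. Among these, 4 are probes of the fatty acid synthesis genes Me1, Elovl6 and Thrsp, which helped to choose the pair and are not used as results. The other 12 stand for 11 genes, Cbr1, Atosa, Mpc1, Ntsr1 and Fmo2 being higher and Sfrp4, Hsd11b2, Col1a1, Cpz, Nnat and Adcy2 lower. At 18 of the 21 no EE or EQ array overlapped an EB array, which held for 5.34% of the probes tested. The difference from EB was larger in size for EE than for EQ at all 21, the 4 probes of fatty acid synthesis included. The share over all tested probes was not computed. In limma, 2220 tested probes had an unadjusted p under 0.05 for EE minus EB and 836 for EQ minus EB. The larger size under EE is therefore not read as a trait of the passing probes. The count changed when single arrays were left out. It was 2 probes without EB replicate 2, 9 without EB replicate 1, 10 without EQ replicate 2 and 10 without EQ replicate 3. Without EE replicate 2 it was 30. Such fits also hold fewer arrays in a group, and the cause of the changes was not tested. When only the 9 estrogen arrays were fitted, 6 probes passed.

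The 9 arrays had deposited medians of 1.04 to 1.06, and 1 of them stood apart. EE replicate 3 had a mean correlation of 0.926 with the other 8 estrogen arrays, against 0.954 to 0.971 for those arrays. Its summed deposited intensity over 16 pancreatic acinar genes was 1400, against 8.0 to 24.3 in the other estrogen arrays. Without it 20 probes passed. The 9 estrogen arrays and vehicle replicate 1 form 1 array set, told from the other 10 arrays by 384 unnamed probes, none of which passed, so the comparison lies within a set. The vehicle group spans both sets, and its spread enters the fit with no term for the set. The smooth muscle markers Myh11 and Tagln were among the bright genes of every estrogen array (Myh11 from 7.86 to 8.81), and the tested probe of Acta2 read near the array median (-0.91 to 0.36). The adipocyte hormone gene Adipoq was bright as well, at 6.37 to 6.91, although the fat had been dissected away. In such whole-tissue RNA, fewer cells of a type and less RNA per cell cannot be told apart.

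When each estrogen was set against each other one, with p-values adjusted over all probes and the 3 pairs together, 46 probes (0.187%) passed between EE and EB, 5 (0.0204%) between EQ and EB, and 33 (0.134%) between EE and EQ. Of the 5 probes between EQ and EB, 3 were those of Cbr1, Mpc1 and Col1a1, and each of these also passed between EE and EB. The remaining probes were those of Me1, from which nothing is read. Between EQ and EB, limma called 0 probes without EB replicate 2, EB replicate 3 or EQ replicate 2, with 572, 758 and 511 probes at an unadjusted p under 0.05, and 1 probe without EB replicate 1. The promoters of Cbr1 and Mpc1, from the RefSeq table of the GRCr8 assembly, are shown because these genes passed under each estrogen of the pair, and that of Me1 because it is the first of the fatty acid synthesis genes described next. Each sequence runs from 250 bases before to 50 bases after the annotated start, 5′ to 3′ on the strand of the gene. The Cbr1 promoter lies at chr11:46346155-46346454 on the plus strand, and the capitals mark GGTCA, the 5-base arm of an estrogen response element, read here on the opposite strand.
Cbr1: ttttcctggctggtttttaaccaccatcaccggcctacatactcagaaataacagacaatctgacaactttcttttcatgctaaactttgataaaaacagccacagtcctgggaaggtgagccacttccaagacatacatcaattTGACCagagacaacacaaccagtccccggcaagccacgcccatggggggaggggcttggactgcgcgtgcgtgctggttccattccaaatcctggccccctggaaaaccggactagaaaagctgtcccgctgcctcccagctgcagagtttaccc
The Me1 promoter lies at chr8:96540195-96540494 on the minus strand, and the capitals mark the antioxidant response core TGACNNNGC.
Me1: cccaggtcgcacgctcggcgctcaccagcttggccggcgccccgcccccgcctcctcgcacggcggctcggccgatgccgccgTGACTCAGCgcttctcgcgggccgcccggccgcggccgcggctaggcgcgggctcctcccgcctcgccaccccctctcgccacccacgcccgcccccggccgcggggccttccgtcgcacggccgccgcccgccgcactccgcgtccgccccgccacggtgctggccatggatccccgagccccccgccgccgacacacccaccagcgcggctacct
The Mpc1 promoter lies at chr1:54996909-54997208 on the minus strand, and the capitals mark the CCAAT box, once on each strand.
Mpc1: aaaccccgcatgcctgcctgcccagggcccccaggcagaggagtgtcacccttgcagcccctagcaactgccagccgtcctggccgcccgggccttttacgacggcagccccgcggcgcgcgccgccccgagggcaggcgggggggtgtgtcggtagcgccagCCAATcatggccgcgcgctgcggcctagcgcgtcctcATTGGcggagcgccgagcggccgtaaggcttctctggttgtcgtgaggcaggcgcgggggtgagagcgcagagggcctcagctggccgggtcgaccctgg
Of the 14 genes named above, Me1, Elovl6 and Thrsp included, 8 have 1 promoter entry. Searched on both strands, GGTCA was found in 3 of these 8 and in 40.5% of 33469 promoters of the same length, the antioxidant response core in 2 and in 12.1%, and the CCAAT box in 4 and in 37.5%. The full palindromic estrogen response element, GGTCA and its mirror 3 bases apart, was in none of the 8 and in 0.0269% of all promoters.

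Fatty acid and triglyceride synthesis genes, whose levels led to the pooling of EE and EQ, were mostly at higher levels under EE and EQ than under EB. Me1, a malic enzyme and source of NADPH for lipid synthesis, read 5.63, 6.39 and 6.30 in the EE arrays, 5.55, 6.00 and 5.18 in the EQ arrays and 4.07, 4.34 and 4.00 in the EB arrays. The EB values overlapped the vehicle values of 3.77 to 4.24, EB replicate 2 lying above them, and the lowest EQ array stood above every EB and vehicle array. The log2 difference was 1.71 ± 0.22 (SE, 6 against 3 arrays), or 3.27-fold, and a second probe of Me1 gave 1.86 ± 0.24. Elovl6, which lengthens palmitate, read 0.68, 2.37 and 2.12 under EE, 1.27, 1.54 and 0.62 under EQ, and -0.62, 0.18 and -0.56 under EB. Its difference was 1.77 ± 0.32 at this probe and 1.37 ± 0.34 at its brighter probe, where EE replicate 1 (1.17) fell below EB replicate 2 (1.31). Thrsp, a regulator of lipid synthesis, read 8.07, 8.12 and 8.54 under EE, 7.85, 8.12 and 7.65 under EQ, and 7.25, 7.15 and 7.08 under EB, with no overlap and a difference of 0.90 ± 0.16.

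Further enzymes of the pathway were also at higher levels under EE and EQ, and apart from some probes of Pc those given here did not overlap EB. Acly, which makes acetyl-CoA from citrate, read 6.29 to 7.50 under EE, 6.05 to 6.66 under EQ and 5.08 to 5.84 under EB, a difference of 1.11 ± 0.33. Acaca, which carboxylates acetyl-CoA, read 6.28 to 7.21, 6.50 to 6.94 and 5.60 to 6.14 in the same order, a difference of 0.88 ± 0.29. Scd, the desaturase that makes oleate, read 7.01 to 7.20 under EE, 6.42 to 6.84 under EQ and 5.91 to 6.01 under EB, where the vehicle arrays read 3.88 to 5.98. For Scd the EB arrays thus reached the top of the vehicle range, and the difference of EE and EQ from EB was 0.90 ± 0.31. Fasn, the fatty acid synthase, read 7.22, 7.70 and 7.77 under EE, 7.11, 7.44 and 7.14 under EQ and 2.06, 6.54 and 6.36 under EB. Its difference of 2.41 ± 0.66 rested on EB replicate 1 and was 0.94 without that array. Aacs, which activates acetoacetate for lipid synthesis, read 2.33 to 2.63 under EE, 1.52 to 1.92 under EQ and 0.43 to 1.21 under EB, a difference of 1.21 ± 0.28. Pc, which makes oxaloacetate from pyruvate, has 26 tested probes, with differences of 0.30 to 1.56, some with overlap.

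Of the 25 tested genes of the list, each represented by its brightest probe, 19 had a positive difference, against 4326 of all 10225 genes, 9 did not overlap and were higher, against 182 (1.78%), and the median was 0.46, against -0.04 for all genes. Since the levels of these genes led to the pooling, the numbers over all genes stand beside them as a description and nothing is read from the contrast. The median was 0.65 for EE minus EB and 0.40 for EQ minus EB. The summed intensity of the 25 genes was 1283 to 1645 in the EE arrays, 1060 to 1376 in the EQ arrays and 740 to 811 in the EB arrays, and 631 to 865 in the vehicle arrays. The EB arrays thus lay inside the vehicle range. The sum over 20 adipocyte genes had another order, at 1774 to 1783 under EE, 2010 to 2158 under EQ and 1637 to 1998 under EB. Every EQ array thus lay above every EB array, and the EE arrays lay inside the EB range. The median difference of those genes was 0.12, with -0.15 for EE minus EB and 0.21 for EQ minus EB. The part of fat content in the lipid values was not tested. Adipoq read 6.73, 6.65 and 6.37 under EE, 6.84, 6.91 and 6.85 under EQ, and 6.71, 6.48 and 6.53 under EB, a difference of 0.15 ± 0.18, which did not pass.

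**Figure D1:**
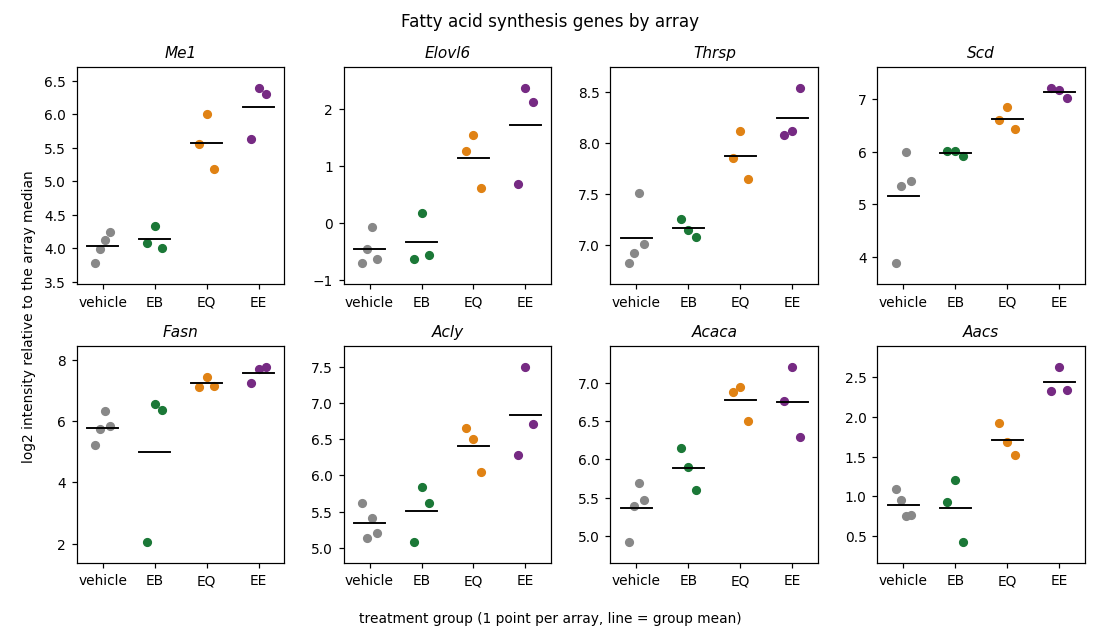
Log2 intensity relative to the array median of 8 fatty acid synthesis genes in the vehicle, EB, EQ and EE arrays; each point is 1 array and each line a group mean. Every EE and EQ point lies above the EB points in each panel, and in the Fasn panel EB replicate 1 lies at 2.06, far below the other EB arrays.

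Next to these enzymes, the transcript of 1 gene that serves pyruvate entry into mitochondria was higher under EE and EQ. Transport itself was not measured. Mpc1, a subunit of the mitochondrial pyruvate carrier, read 6.24, 6.40 and 6.42 under EE, 6.05, 6.40 and 5.96 under EQ, and 5.25, 5.17 and 5.14 under EB. The groups did not overlap, and the EB arrays lay within the vehicle range of 5.02 to 5.40. Mpc1 rose by 1.06 ± 0.15 on the log2 scale, or 2.09-fold (limma, adjusted p = 0.00469, and 0.057 without EB replicate 2). EE and EQ differed from each other by 0.22, with a 95% confidence interval of -0.13 to 0.57. Pdk1, a kinase that turns off pyruvate dehydrogenase, read 3.30 to 3.52 under EE, 3.17 to 3.51 under EQ and 2.61 to 2.86 under EB, a difference of 0.67 ± 0.14 that did not pass (adjusted p = 0.13). Pdk4, another such kinase, was dim and read -0.05 to 0.94 under EE, -0.87 to -0.50 under EQ and -2.66 to -1.42 under EB (difference 1.84 ± 0.50, adjusted p = 0.28). Pdha1, a subunit of pyruvate dehydrogenase itself, differed by 0.52 ± 0.23 (adjusted p = 0.93). In the list of 21 pentose phosphate and pyruvate genes, Mpc1 alone passed, 16 genes had a positive difference and the median was 0.27. Over all 10225 genes at their brightest probe 12 (0.117%) passed, the fatty acid synthesis genes included. Of all these genes 4326 had a positive difference and the median was -0.04.

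Genes of fat oxidation and respiration held no passing member. Of all 10225 genes at their brightest probe 12 (0.117%) passed, so an empty list of this size is no result about its genes. None of 25 genes of fatty acid oxidation and ketogenesis passed, with a median of 0.16, and none of 33 oxidative phosphorylation genes, with a median of 0.15. Angptl4, which inhibits lipoprotein lipase, read 3.85 to 4.49 under EE, 3.45 to 4.27 under EQ and 2.15 to 3.55 under EB. In that case the EE and EQ arrays lay near the vehicle values of 4.04 to 4.55 and the EB arrays below them, although EQ replicate 3 overlapped EB replicate 1 (difference 1.15 ± 0.33, adjusted p = 0.37). Cycs, which encodes cytochrome c, differed by 0.48 ± 0.15 (adjusted p = 0.43) with no overlap. Of 19 sterol synthesis and uptake genes none passed and the median was 0.09; Insig1, which holds back sterol synthesis, differed by 0.47 ± 0.21 (adjusted p = 0.93).

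Carbonyl and drug-metabolising enzymes held the gene with the smallest p. Cbr1, a carbonyl reductase that also acts on prostaglandins and steroids, read 6.34, 6.18 and 6.68 under EE, 6.11, 6.05 and 6.17 under EQ, and 4.61, 4.33 and 4.37 under EB, where the vehicle arrays read 4.35 to 4.92. Cbr1 rose by 1.82 ± 0.22, or 3.53-fold (adjusted p = 0.00376), and it passed under each of 25 other settings of the analysis. EE and EQ differed by 0.29, with an interval of -0.25 to 0.83. Cyp2e1, a cytochrome P450 that oxidises small molecules and ketones, read 3.49, 2.28 and 3.37 under EE, 2.61, 2.28 and 2.58 under EQ, and 2.17, 0.34 and -0.52 under EB. Its difference of 2.11 ± 0.50 did not pass (adjusted p = 0.19), and without EB replicate 1 it was 2.86 and passed (adjusted p = 0.034). Fmo2, a flavin monooxygenase, followed EE and not EQ. At its brighter probe it read 5.27, 4.22 and 5.35 under EE, 2.76, 2.60 and 3.11 under EQ, and 2.27, 2.86 and 1.90 under EB. The vehicle arrays read 3.02 to 4.06, below every EE array and above every EB array. EQ and EB overlapped, so the pooled difference of 1.54 ± 0.27 (adjusted p = 0.0392) was carried by EE, which exceeded EQ by 2.12 (adjusted p over the pairs = 0.0103). The pooled call of this probe was kept in 1 of the 9 fits that left out 1 estrogen array, the one without EE replicate 2, and the adjusted p was 0.057 to 0.231 in the others. Of 32 genes of this list, Cbr1 and Fmo2 passed, and the median was 0.14. Of all 10225 genes at their brightest probe 12 (0.117%) passed, and their median was -0.04.

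Of 18 genes of steroid metabolism and glucocorticoid response, Hsd11b2 alone passed, where 0.117% of all genes did, and it fell. Hsd11b2, which inactivates corticosterone, read -0.44, 0.30 and -0.42 under EE, 0.85, 0.26 and 0.34 under EQ, and 1.29, 2.07 and 1.46 under EB, with vehicle arrays at 1.16 to 1.77. Hsd11b2 fell by 1.46 ± 0.22, or 2.75-fold (adjusted p = 0.00816, and 0.0898 without EB replicate 2), and the groups did not overlap. EE minus EB was -1.79 (adjusted p over the pairs = 0.00659) and EQ minus EB -1.13 (0.109), and EE minus EQ was -0.67 (0.506). Cyp7b1, a hydroxylase of oxysterols and steroids, read 0.10 to 0.49 under EE, 0.31 to 0.64 under EQ and 1.14 to 1.24 under EB (difference -0.81 ± 0.21, adjusted p = 0.23). Fkbp5, a chaperone induced by glucocorticoids, read 3.18 to 4.08 under EE, 1.84 to 2.74 under EQ and 1.66 to 2.07 under EB. The vehicle arrays read 2.87 to 3.25, so 2 EE arrays stood above and the EQ arrays below them, and EQ overlapped EB. The pooled difference was 1.15 ± 0.27 (adjusted p = 0.18), and EE minus EB was 1.83 (adjusted p over the pairs = 0.026). Klf9, another glucocorticoid-induced gene, differed by 0.55 ± 0.18 (adjusted p = 0.53).

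**Figure D2:**
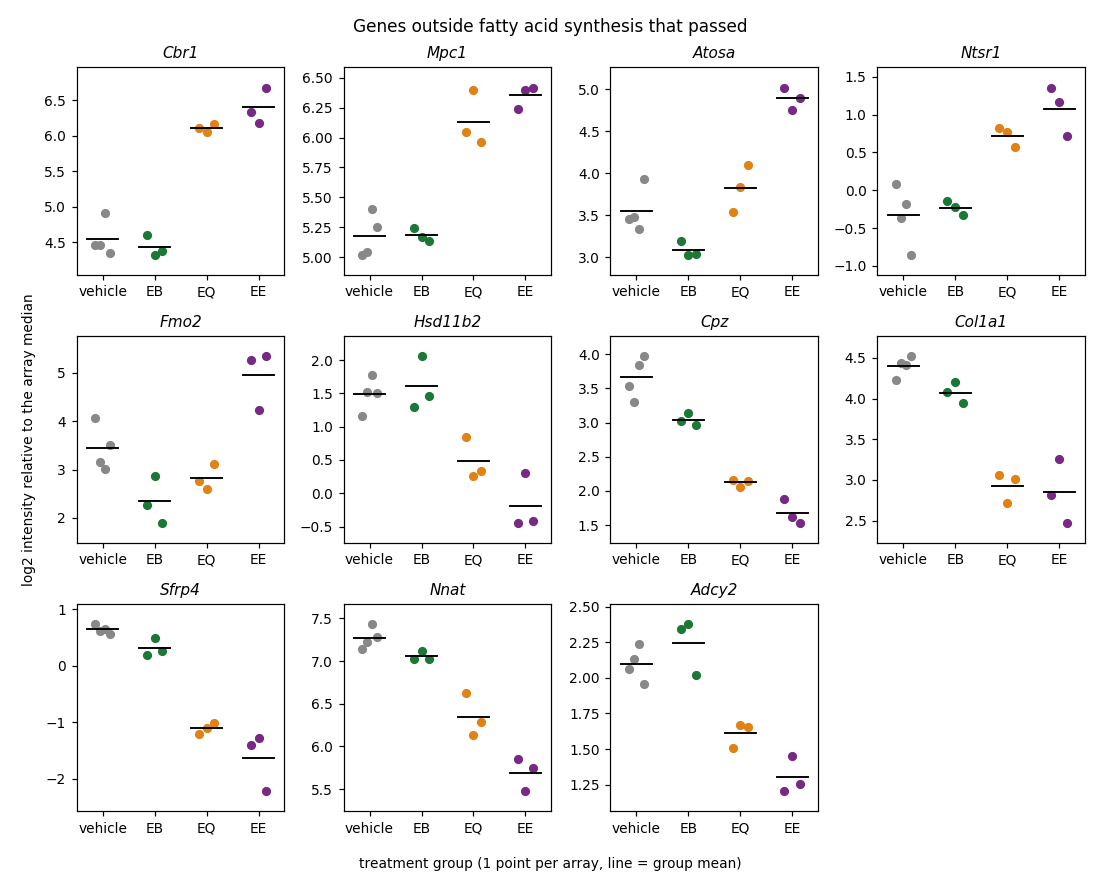
Log2 intensity relative to the array median of the 11 genes outside fatty acid synthesis that passed, 1 point per array with lines at group means, for vehicle, EB, EQ and EE. In 10 of the panels the EQ and EE points lie apart from the EB points. In the Fmo2 panel the EQ points overlap the EB points, vehicle lies above EB and EE is highest.

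Among extracellular matrix genes Col1a1 fell under EE and EQ, and several others had lower values without passing. Col1a1, a chain of type I collagen, read 2.81, 3.26 and 2.48 under EE, 3.07, 2.72 and 3.01 under EQ, and 4.08, 4.20 and 3.95 under EB, and the vehicle arrays read 4.23 to 4.53. It fell by 1.18 ± 0.18, or 2.27-fold (adjusted p = 0.00816), and EE and EQ differed by -0.08, with an interval of -0.51 to 0.34. The call was lost without EB replicate 1 (adjusted p = 0.0632) and without EB replicate 2 (0.088). Its brighter probe differed by -0.96 ± 0.24 and did not pass (adjusted p = 0.21), with EE at 4.13 to 5.28, EQ at 5.26 to 5.66 and EB at 5.84 to 6.12. Fn1 (fibronectin), Postn (periostin), Pcolce (a procollagen protease enhancer) and Cthrc1 (which binds collagen triple helices) differed by -0.71, -0.79, -0.70 and -0.89, with adjusted p-values from 0.12 to 0.21. Without EE replicate 2, Cthrc1 passed at -0.99 (adjusted p = 0.0486). In none of the 4 did an EE or EQ array overlap an EB array, and the second probe of Fn1 differed by -0.32. Tnc, which encodes tenascin C, differed by -0.92 ± 0.31 (adjusted p = 0.60). Over 53 matrix genes none passed at its brightest probe, 12 had a positive difference, 13 did not overlap and were lower, and the median was -0.21. Over all 10225 genes 0.117% passed, and 418 (4.09%) did not overlap and were lower. The summed intensity of the list was 1832 to 2123 under EE, 1929 to 2045 under EQ, 2180 to 2372 under EB and 2378 to 2929 under vehicle. The summed intensity of 16 fibroblast genes was 681 to 890 under EE, 776 to 852 under EQ and 831 to 890 under EB, with a median difference of -0.25, and its part in the matrix values was not tested.

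Secreted proteins that process the matrix or bind Wnt ligands held 2 passing genes. Cpz, a carboxypeptidase with a Wnt-binding frizzled domain, read 1.87, 1.62 and 1.53 under EE, 2.16, 2.06 and 2.15 under EQ, and 3.02, 3.14 and 2.97 under EB. It fell by 1.14 ± 0.17, or 2.21-fold (adjusted p = 0.00816), and its call was lost without EB replicate 1 (0.0611) and EB replicate 2 (0.088). For Cpz, EE minus EB was -1.37 (adjusted p over the pairs = 0.00918) and EQ minus EB -0.92 (0.0871), and EE minus EQ was -0.45 (0.63). Sfrp4, a secreted Wnt antagonist, read -1.40, -1.27 and -2.22 under EE, -1.21, -1.10 and -1.01 under EQ, and 0.18, 0.49 and 0.26 under EB, with vehicle arrays at 0.57 to 0.74. Sfrp4 fell by 1.68 ± 0.31, or 3.21-fold (adjusted p = 0.0478). The groups were far apart, yet this adjusted p lay next to the threshold, and it stayed under it in 1 of the 9 fits without 1 estrogen array, the one without EE replicate 2, and was 0.0694 to 0.30 in the others. Cpz and Sfrp4 were the only passing genes among 18 Wnt modulators, whose median was -0.09, where 0.117% of all genes passed. Cpxm1, a relative of Cpz without peptidase activity, differed by -0.81 ± 0.21 and the protease inhibitor A2m by -1.20 ± 0.30 (adjusted p = 0.24 and 0.22), with no overlap in either. In contrast Spink5, a serine protease inhibitor of epithelia, read 1.11, 1.20 and 0.54 under EE, 0.96, 1.08 and 0.72 under EQ, and -0.03, -0.85 and -0.69 under EB, a difference of 1.46 ± 0.28 just short of the threshold (adjusted p = 0.0572), which it passed without EE replicate 3 (0.044). The list of 25 matrix proteases and inhibitors had a median of -0.25. Cpz, already counted among the Wnt modulators, was its only passing gene.

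**Figure D3:**
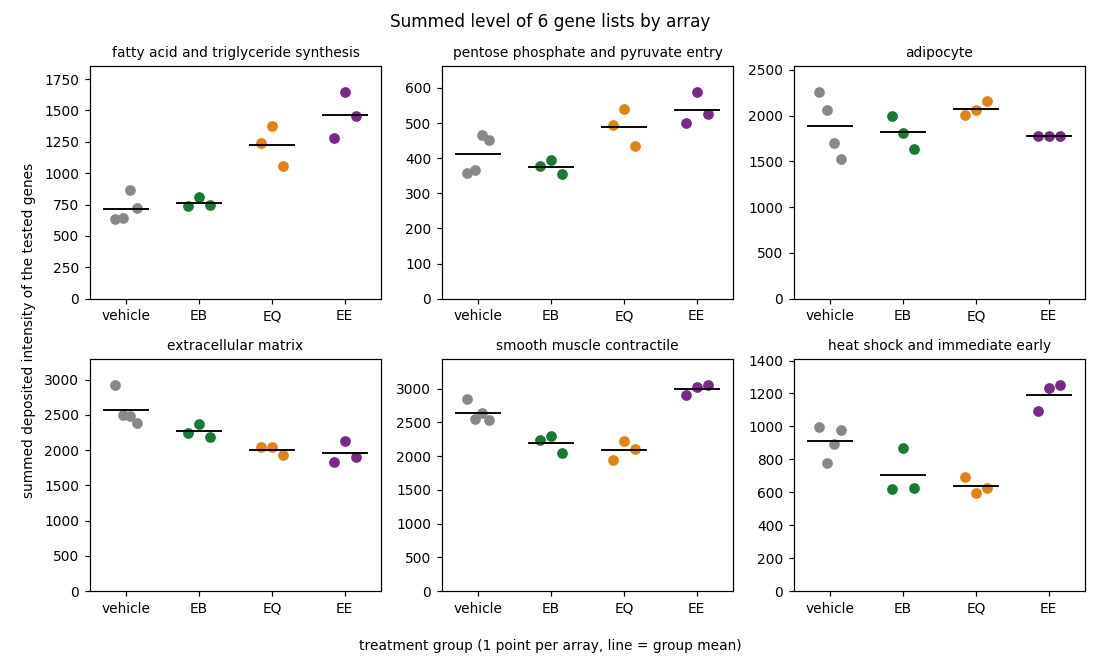
Summed deposited intensity of the tested genes of 6 gene lists, 1 point per array with lines at group means, for vehicle, EB, EQ and EE; the axes start at 0. Fatty acid synthesis sums are highest in the EE and EQ arrays, pyruvate sums of both lie above EB while those of EQ overlap vehicle, matrix sums are lowest under EE and EQ, and smooth muscle and heat shock sums are high under EE but not under EQ.

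Among vasoactive and signalling genes, Ntsr1, a receptor of the peptide neurotensin, rose. Ntsr1 read 1.36, 1.16 and 0.72 under EE, 0.82, 0.77 and 0.57 under EQ, and -0.14, -0.22 and -0.33 under EB, with vehicle arrays at -0.85 to 0.09. Its difference was 1.13 ± 0.18, or 2.19-fold (adjusted p = 0.016), and EE and EQ differed by 0.36, with an interval of -0.08 to 0.79. The call was lost without EB replicate 1, 2 or 3 or EQ replicate 2 (adjusted p = 0.071, 0.0913, 0.101 and 0.0516). Adcy2, an adenylyl cyclase, read 1.21, 1.45 and 1.25 under EE, 1.5, 1.67 and 1.66 under EQ, and 2.35, 2.38 and 2.02 under EB, and fell by 0.79 ± 0.14, or 1.73-fold (adjusted p = 0.0315). The adjusted p of Adcy2 was under the threshold in 2 of the 9 fits without 1 estrogen array, those without EE replicate 2 and without EB replicate 3, and 0.0545 to 0.246 in the others. Apln, a vasodilator peptide, and its receptor Aplnr differed by -1.46 ± 0.40 and -1.21 ± 0.36 with no overlap, and neither passed (adjusted p = 0.30 and 0.39). For Apln, EE replicate 3 stood low at -2.38, and the other 5 EE and EQ arrays read 0.11 to 0.66 against 1.25 to 1.60 under EB. Without EE replicate 3 the difference of Apln was -1.02 and passed (adjusted p = 0.0197). Ptgs2, the inducible cyclooxygenase, read 0.47 to 2.07 under EE, 1.44 to 1.90 under EQ and 2.76 to 3.63 under EB (difference -1.51 ± 0.37, adjusted p = 0.21). Kcne4, which damps voltage-gated potassium channels, differed by -0.97 ± 0.23 (adjusted p = 0.18), and by -1.13 without EE replicate 2, where it passed (0.0321). Ntsr1 was the only passing gene of 28 vasoactive peptides and receptors, where 0.117% of all genes passed. Their median was -0.04, the same as for all genes.

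Atosa and Nnat, which belong to no theme above, completed the passing genes. Atosa, whose product resembles a transcriptional regulator of macrophages in the fly, read 5.02, 4.76 and 4.89 under EE, 3.53, 3.84 and 4.10 under EQ, and 3.20, 3.03 and 3.04 under EB. It rose by 1.27 ± 0.17, or 2.41-fold (adjusted p = 0.00376, and 0.057 without EB replicate 2), with the EQ arrays between. EE also exceeded EQ by 1.07 (adjusted p over the pairs = 0.0364), a call that was lost in each of the 9 fits without 1 estrogen array (0.0506 to 0.182). A second probe of Atosa differed by 0.81 ± 0.31, with overlap, and did not pass (adjusted p = 0.786). Nnat, an imprinted gene of endocrine cells and fat that encodes neuronatin, read 5.85, 5.48 and 5.75 under EE, 6.62, 6.14 and 6.29 under EQ, and 7.03, 7.11 and 7.03 under EB, near the vehicle values of 7.14 to 7.43. Nnat fell by 1.03 ± 0.18, or 2.05-fold (adjusted p = 0.026). It was the only one of 20 adipocyte genes to pass, where 0.117% of all genes did at their brightest probe. EE minus EB was -1.36 (adjusted p over the pairs = 0.0103) and EQ minus EB -0.70 (0.284), and EE minus EQ was -0.66 (0.339). The pooled call of Nnat was lost without EB replicate 1, 2 or 3 or EQ replicate 2 or 3 (adjusted p from 0.0737 to 0.2). Tmem86a, a lysoplasmalogenase, and Tekt1, a tektin of cilia, were the nearest non-overlapping genes that were lower but did not pass, by 0.78 and 0.87 on the log2 scale (adjusted p = 0.0626 and 0.102).

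Cell cycle genes read near or below the array median, and none passed, where 0.117% of all genes did at their brightest probe. Top2a, which untangles DNA before mitosis, read -0.58, -0.31 and -0.90 under EE, -0.15, -0.30 and 0.04 under EQ, and 0.26, 0.69 and 0.39 under EB, below the vehicle values of 0.94 to 1.40. The difference was -0.81 ± 0.19 (adjusted p = 0.17). Kif22, a mitotic kinesin, differed by -0.80 ± 0.22 and the replication licensing gene Mcm5 by -0.85 ± 0.28 (adjusted p = 0.34 and 0.52). Of 33 cell cycle genes 8 had a positive difference and the median was -0.22, and none of 19 DNA replication genes passed (median -0.12).

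None of the 27 steroid receptor and estrogen-responsive genes passed, where 0.117% of all genes did, and their median was -0.09. Esr1 differed by 0.15 ± 0.19 and Gper1 by 0.27 ± 0.25, and Esr2 by -0.17 ± 0.13 at its brighter probe and 0.30 at another. Pgr, the progesterone receptor gene, read -0.72 to -0.19 under EE, -0.21 to 0.16 under EQ and -0.33 to -0.19 under EB (difference 0.03 ± 0.15), with all 3 groups overlapping. For Oxtr, the oxytocin receptor, the mean of EE and EQ hid opposite values, since EE read -0.54, -0.46 and -1.65, EQ 0.32, 0.46 and 0.56, and EB -0.07, -0.25 and -0.20. EE and EQ lay on either side of EB, the pooled difference was -0.04 ± 0.23, and EE minus EQ was -1.33 (adjusted p over the pairs = 0.061). Inhbb, a subunit of inhibin and activin, read 0.93 to 1.30 under EE, 1.89 to 1.97 under EQ and 2.11 to 2.30 under EB, and the vehicle arrays read 1.19 to 1.72. For Inhbb the EE arrays were therefore the nearest to vehicle (pooled difference -0.69 ± 0.16, adjusted p = 0.18; EE minus EB -1.09, adjusted p over the pairs = 0.027). Igfbp5, a binding protein of insulin-like growth factors, differed by -0.73 ± 0.18 at its brighter probe (adjusted p = 0.21) and -0.08 at another.

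The pooled estrogens were also set against each other. EE minus EQ is a difference of means that holds no EB array, although the EB arrays enter the common spread. Of the 33 probes that passed, 29 (0.118% of the probes tested) were higher under EE and 4 (0.0163%) lower. The count was 2 without EQ replicate 1 and without EQ replicate 2, 9 without EQ replicate 3, 7 without EE replicate 1 and 11 without EE replicate 3, and it was 20, 18 and 16 without EB replicates 1, 2 and 3. Hspb1 passed in all of these. Hspb1, a small heat shock protein, read 7.55, 7.47 and 7.85 under EE, 5.97, 5.67 and 5.68 under EQ, and 5.63, 6.32 and 5.87 under EB. EE thus exceeded EQ by 1.85 ± 0.21 (adjusted p over the pairs = 0.0024), and the EQ arrays lay within the EB range. The vehicle arrays read 6.32 to 7.18, below every EE array, and no EQ or EB array stood above the lowest of them. Lmod1, which nucleates actin filaments in smooth muscle, read 3.50, 3.51 and 3.68 under EE, 2.17, 2.38 and 2.78 under EQ, and 2.32, 2.26 and 2.49 under EB (EE minus EQ 1.12, adjusted p over the pairs = 0.0132, and 0.056, 0.080 and 0.074 without EE replicate 3, EQ replicate 1 and EQ replicate 2). Cacna1h, a low-voltage calcium channel, read 3.15, 2.91 and 2.83, then 1.55, 2.00 and 1.79, then 2.34, 1.91 and 1.93 in the same order (EE minus EQ 1.19, adjusted p over the pairs = 0.0235, and 0.116 without EE replicate 1 and 0.11, 0.057 and 0.082 without EQ replicates 1, 2 and 3).

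Like several other lists, smooth muscle contractile genes split the pair. Their median was 0.14 for EE and EQ minus EB, but 0.47 for EE minus EB, -0.19 for EQ minus EB and 0.69 for EE minus EQ, where the median of all genes was 0.10. Under quantile normalisation the last value was 0.46, with all genes near 0, and without EE replicate 3 it was 0.76. The genes Lmod1, Pln and Tpm1, of which Pln and Tpm1 were named after their values were seen, passed between EE and EQ, each higher under EE (none of the 28 did without EE replicate 3). Of all 10225 genes at their brightest probe, 12 (0.117%) passed as higher under EE than under EQ and 1 (0.00978%) as lower. None of the 28 passed in the pooled difference, in which 12 of all genes (0.117%) passed, the fatty acid synthesis genes included. The summed intensity was 2908 to 3060 under EE, 1937 to 2221 under EQ, 2048 to 2295 under EB and 2530 to 2846 under vehicle. The 27 heat shock and immediate early genes had a median of 0.11 for the pooled difference and 0.65 for EE minus EQ. Against EB their medians were 0.26 for EE and -0.20 for EQ. The same medians were 0.24 and -0.23 for 24 ion channel and calcium handling genes. For 20 adipocyte genes they went the other way, at -0.15 and 0.21. Endothelial genes had a median of -0.14 and none of 16 passed; Pecam1 differed by -0.12 ± 0.19 at its brighter probe and 0.42 at another.

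**Figure D4:**
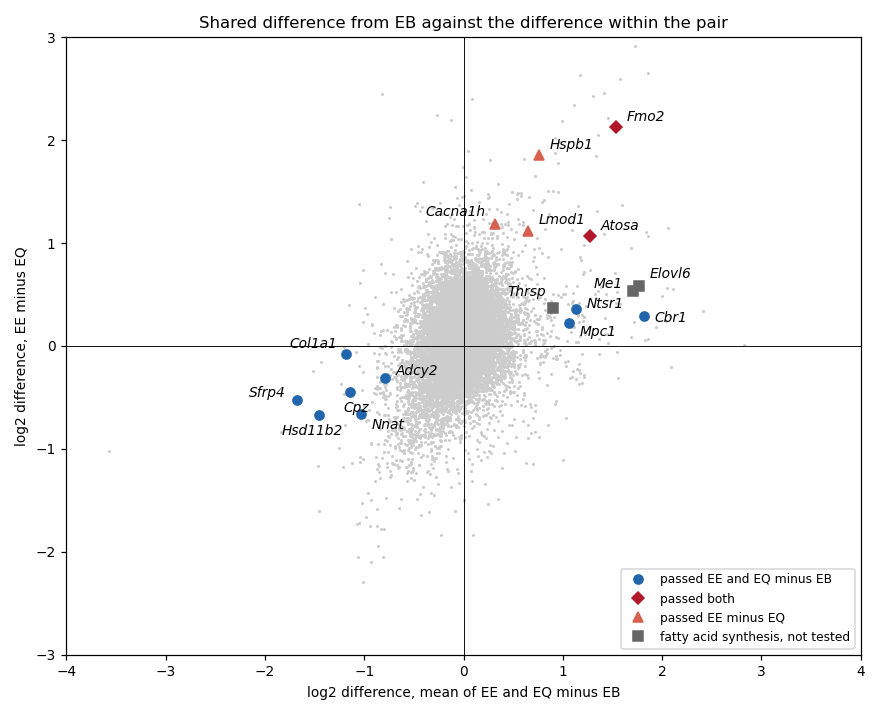
Each point is a probe with 1 gene symbol; the horizontal axis is the log2 difference of the mean of EE and EQ minus EB and the vertical axis that of EE minus EQ. Blue circles passed the pooled difference and lie within 0.67 of 0 on the vertical axis, and grey squares are fatty acid synthesis genes, shown without a test; Fmo2 and Atosa passed both tests, and Hspb1, Lmod1 and Cacna1h passed EE minus EQ alone.

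**Figure D5:**
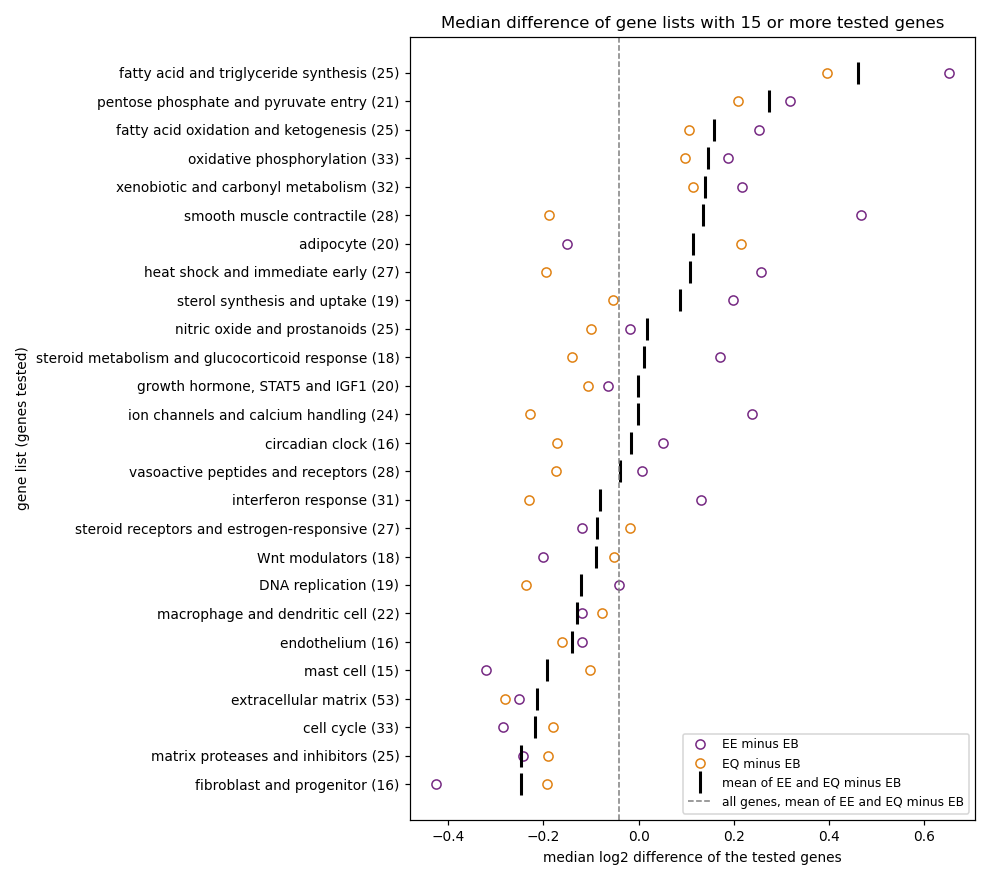
Median log2 difference over the tested genes of each list with 15 or more of them (number in parentheses), pancreatic genes left out; open circles are EE minus EB and EQ minus EB, bars the mean of EE and EQ minus EB, and the dashed line the median of all genes. Fatty acid synthesis, whose levels led to the pooling, stands highest at 0.46 and is shown as a description. Matrix proteases and fibroblast genes stand lowest at -0.25. The circles of smooth muscle genes lie on either side of the line, as do those of several other lists.

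The vehicle arrays, which no fit of the comparison used as a reference, lay nearer to EB than to EE and EQ at most passing probes. Vehicle replicate 1, of the same array set, was nearer to the EB mean than to the mean of EE and EQ at 18 of the 21 passing probes, the 4 of fatty acid synthesis included, and so was the mean of the other 3 vehicle arrays. Among the 788 tested probes with 1 symbol at which EE and EQ did not overlap EB, the numbers were 530 and 666. Nearness of vehicle to EB was thus common there too and is not read as a trait of the passing probes. The numbers over all tested probes were not computed. Over all tested probes, EE and EQ did not overlap EB and were higher at 554 (2.26%) and lower at 758 (3.09%).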

How the data were processed

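The authors hybridised each RNA sample to 1 single-colour CodeLink Whole Rat Genome array, scanned it with a GenePix 4000B scanner and GenePix Pro 5.0, and used Acuity 3.1 and GeneSpring 7.1, per the submitters' processing notes and the design text. The deposited values are intensities that already have a median near 1 on each array; the sources used here do not give the software step that scaled them. The 5314 negative intensities became 0. After adding 0.103, 0.1 times the median level, values were taken to log2 and each array was centred on its median. The test left out 40 probes that lacked values in over 1 array of some group, then the dimmest 30% by mean. A mean per group over all 20 arrays was fitted with limma 3.58.1 in R 4.3.3 (eBayes with trend), with Benjamini-Hochberg adjustment over probes, or over probes and the 3 pairs for single pairs, at a threshold of 0.05. The number of arrays limits the precision. The steps were tested on simulated data.

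The members and the 36 gene lists were chosen with earlier results of these data known, and lists were given no test. The brightest tested probe stands for a gene in a list. Genes were named by rule: passing non-overlapping probes (up to 12 a direction, filled to 8 with the smallest p), up to 5 members of each list, a fixed set of genes, and the 5 probes with the smallest p in EE minus EQ. Symbols came from the platform annotation, in which 16865 probes have 1 symbol, 165 several and 18099 none. Srebf1 of the fixed set was not among the tested probes. Replicate numbers do not pair the arrays by any label.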

Additional observations from a re-analysis of the deposited data

Results flagged for a closer look

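Among the vehicle arrays of 89 named probes, 3 held 1 array far from the other 3, where chance gives about 1 in 20. Inhbb read 1.72 in vehicle replicate 2 against 1.19 to 1.26 in the other vehicle arrays, Tagln read 7.69 in vehicle replicate 4 against 7.97 to 8.01, and Cpa3 read 2.08 in vehicle replicate 2 against 2.45 to 2.52.

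EE and EQ differed from each other, by the test of that difference, at 6 named probes, and at 33 (0.134%) of all 24562 probes tested. The naming rule included probes with the smallest p in this same test, which were those of Hspb1, Fmo2, Lmod1 and Cacna1h. The count of 6 is therefore largely set by the naming, and nothing is read from it. The log2 difference of EE minus EQ was 1.85 for Hspb1, 2.12 and 2.11 for the probes of Fmo2, 1.12 for Lmod1, 1.19 for Cacna1h and 1.07 for Atosa. Set against EB, the values of EE and EQ were 1.68 and -0.17 for Hspb1, 2.60 and 0.47 for the brighter probe of Fmo2, 1.21 and 0.09 for Lmod1, 0.91 and -0.28 for Cacna1h, and 1.80 and 0.74 for Atosa. Hspb1 passed in 25 of 25 other settings (highest adjusted p over the pairs 0.0247), Lmod1 and Cacna1h in 21, the Fmo2 probes in 20 and 18, and Atosa in 11, its call being lost in each of the 9 fits without 1 estrogen array.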

How the results depend on the processing

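Pooled counts are those of EE and EQ minus EB (21 probes), and counts for EE minus EB (46), EQ minus EB (5) and EE minus EQ (33) follow in that order. Array weights gave 766, 959, 3353 and 1904. Fitting only the 9 estrogen arrays gave 6, 123, 13 and 198, and doing so without the regularly spaced unnamed probes gave 12, 138, 13 and 204. Fitting the estrogen arrays without EE replicate 3 gave 17, 203, 41 and 322, and these last 2 settings were chosen after seeing the data. Raloxifene replicate 3 enters none of the 4 differences but does enter the common spread, and its mean correlation with the other arrays was 0.841. Leaving it out gave 46, 166, 14 and 184. The differences stayed as they were in that fit, as for Hspb1 with EE minus EQ at 1.85. Leaving out each of the 9 estrogen arrays in turn gave 2 to 30, 20 to 49, 0 to 6 and 2 to 34; the lowest counts came without EB replicate 2, EB replicate 1, EB replicates 2 and 3 and EQ replicate 2 (0 each), and EQ replicates 1 and 2 (2 each). With an array set block, EE minus EQ gave 21. Replicate numbers shared between groups gave deviation correlations of -0.11 to 0.08, so they share only a number; with a replicate block the counts were 18, 25, 3 and 17. Quantile normalisation, other offsets, other filters, no centring, no variance trend and the mean over probes kept all 4 counts within 1.5 times. The cause of these shifts was not tested.

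Of 2209 values of 89 named probes under these settings, 2199 kept their direction. The 10 that did not were small. The mean over probes gave 0.064 for Esr2 and 0.15 for Pecam1. Oxtr was 0.084 with array weights, 0.15 in the estrogen arrays without EE replicate 3, and -0.15 to 0.15 when single arrays were left out; Pgr was -0.030 to 0.12. Cbr1 passed in 25 of 25 settings, Mpc1 in 24, Atosa and Cpz in 23, Hsd11b2 in 21, Col1a1 in 20, Nnat and Ntsr1 in 19, Adcy2 and each Fmo2 probe in 13, and Sfrp4 in 9 of 24. With 3 arrays a group, the smallest passing pooled difference was 0.79 in size, and probes near the offset have compressed differences.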

Other observations

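Arrays of the selective estrogen receptor modulators, given at 3 mg/kg and lying in the other array set, were set beside these values without a test, since dose and set differ. Ntsr1 read 1.30 to 1.51 in the 4 tamoxifen arrays and 0.25 to 0.61 in the 3 raloxifene arrays, where EB read -0.33 to -0.14. Cbr1 read 4.89 to 5.95 under tamoxifen and 4.62 to 5.34 under raloxifene, between the highest EB array (4.61) and the lowest EE array (6.18). Col1a1 at its dimmer probe read 2.80 to 3.28 and 3.11 to 3.57, Cpz 1.85 to 2.46 and 2.41 to 2.77, Hsd11b2 -0.25 to 0.24 and 0.17 to 0.52, and Adcy2 1.14 to 1.57 and 1.33 to 1.60, in each case below every EB array. Sfrp4, at -1.29 to -0.53 and -2.20 to -0.17, was also below them. Nnat overlapped EB under tamoxifen (6.75 to 7.71) and lay below it under raloxifene (6.68 to 6.90). Atosa (3.93 to 4.43 and 4.15 to 4.42) and the brighter probe of Fmo2 (4.20 to 4.64 and 3.64 to 4.07) lay above every EB array. Me1, Thrsp and the pyruvate carrier gene Mpc1 read near the vehicle and EB values. Me1 at its brighter probe read 3.68 to 4.09 under tamoxifen and 3.26 to 4.13 under raloxifene. Mpc1 read 4.99 to 5.34 and 5.04 to 5.51, and Thrsp 6.98 to 7.40 and 6.72 to 6.95. Spink5 read -1.05 to -0.28 and -0.94 to -0.02, also near EB.

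Mast cell, macrophage and dendritic cell genes held no passing member, where 0.117% of all genes passed at their brightest probe. The mast cell protease gene Mcpt10 differed by -0.65 ± 0.18 and Cpa3, a mast cell carboxypeptidase, by -0.43 ± 0.14, neither passing (adjusted p = 0.32 and 0.56), and none of 15 mast cell genes passed (median -0.19). Clec9a, of cross-presenting dendritic cells, differed by -0.65 ± 0.19 and Mpeg1, the macrophage perforin, by -0.54 ± 0.16 (adjusted p = 0.38 and 0.41), and none of 22 macrophage and dendritic cell genes passed (median -0.13). Cish, a target of STAT5, read 0.68 to 1.15 under EE, 0.09 to 0.98 under EQ and 2.41, 0.42 and 2.15 under EB; EB replicate 2 overlapped the pooled arrays, and the difference of -0.99 ± 0.39 was -1.61 without it, -0.62 without EB replicate 1 and -0.75 without EB replicate 3.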
